A study of Mus musculus with 34 samples.

Results

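Liver RNA of mouse pups whose dams had drunk goitrogens for 3 days was compared with liver RNA of control pups. The comparison takes every array labelled Hypo, with 9 pups, and every array labelled Control, with 8 pups, which makes 17 of the 34 arrays of the series. All pups were C57BL/6 mice at postnatal day 15 (PND 15), and all dams had sucrose in their drinking water. In the hypo group (4 males and 5 females) the dams' water also held methimazole (0.05% wt/vol), a drug that blocks thyroid hormone synthesis, and perchlorate (1% wt/vol), which blocks the uptake of iodide. Control pups (4 males and 4 females) came from dams without goitrogens, and pups of both groups received an injection of saline 4 h before their livers were taken. A further group of 7 pups, hypo+, had the same goitrogens and an injection of T4 and T3 in place of saline, and is set beside the hypo group where stated. Per the methods, pups treated in this way were split by their measured serum T4. Those near control or slightly above it remained hypo+, and those with higher T4 were not put on arrays. The other 10 pups of the series, hyper, had an injection of T4 and T3 at a higher dose than hypo+ and without goitrogens. They enter only the pooled fit and the plot of acinar transcripts. Pups were exposed only through their dams, and exposure to the goitrogens and the fall in hormone cannot be told apart in this contrast.

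Thyroid hormone acts in liver mainly through the receptor THRB, which sits on response elements in the DNA together with a retinoid X receptor. Without T3 the receptor recruits corepressors and holds many target genes down, and with T3 it recruits coactivators. Genes of lipogenesis, cholesterol turnover and hormone activation itself are textbook targets in this organ. Glutathione transferases and quinone reductases form a separate programme, under the transcription factor NRF2, that answers to electrophiles and oxidants through antioxidant response elements.

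Each array measured 1 pup, labelled with Cy5, against a universal mouse reference RNA, labelled with Cy3, so that levels are log2 ratios, pup over reference, normalized by loess. The median Cy5 signal of an array lay between 150 and 191 in control and between 149 and 191 in hypo pups. Between 63.6% and 79% of spots were well above background in Cy5 in control pups and between 63.5% and 77.6% in hypo pups. The number of arrays and of litters limits the precision. Goitrogens were given to the dams, and by their animal numbers the control pups came from 4 litters and the hypo pups from 5. One pooled limma fit over all 34 arrays, with sex as a covariate and the slide as a random block, gave log2 fold-changes with their standard error (SE) and a p adjusted by Benjamini-Hochberg over all 41174 probes. Genes with at least 1 probe at an adjusted p below 0.05 are referred to as called. The pooled fit has no term for litter, so its p-values take pups of the same litter as independent.

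In hypo pups, 758 of 33236 genes were called (2.28%). Levels were lower than in control pups for 351 (1.06%) and higher for 407 (1.22%). Their changes were mostly small: the fold-change of the 862 called probes (2.09% of probes) ran from 1.07 to 6.72 with a median of 1.24, and 26 of them changed by 2-fold or more, 16 down and 10 up. The large falls include the pancreatic genes Reg1, Cela1 and Cela2a. Without 3 control pups described with the cell type markers, their log2 fold-changes were -0.45, -0.22 and -0.31. The groups did not overlap at 126 of the called probes, where 0.321% of all probes had no overlap. The pooled fit that chose the 862 called probes used both sexes, and all of them had the same sign in males and in females. Of these, 505 had the same sign on each of the 7 slides that held a hypo and a control array. By their animal numbers, the 9 hypo pups came from 5 litters and the 8 control pups from 4, and the goitrogens were given to the dam. With the mean of each inferred litter as 1 value, 167 genes were called (94 lower and 73 higher), and 164 of these were among the 758. The balance of directions moved with the scaling and with the unit and arrays used. Of called genes, 53.7% were higher in the pooled fit, 76.2% after normexp background correction and 64.7% after median centring. The share was 43.7% with litter means, 48.6% without the 3 control pups, 36.1% in males alone and 38.2% in females alone.

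**Figure D1:**
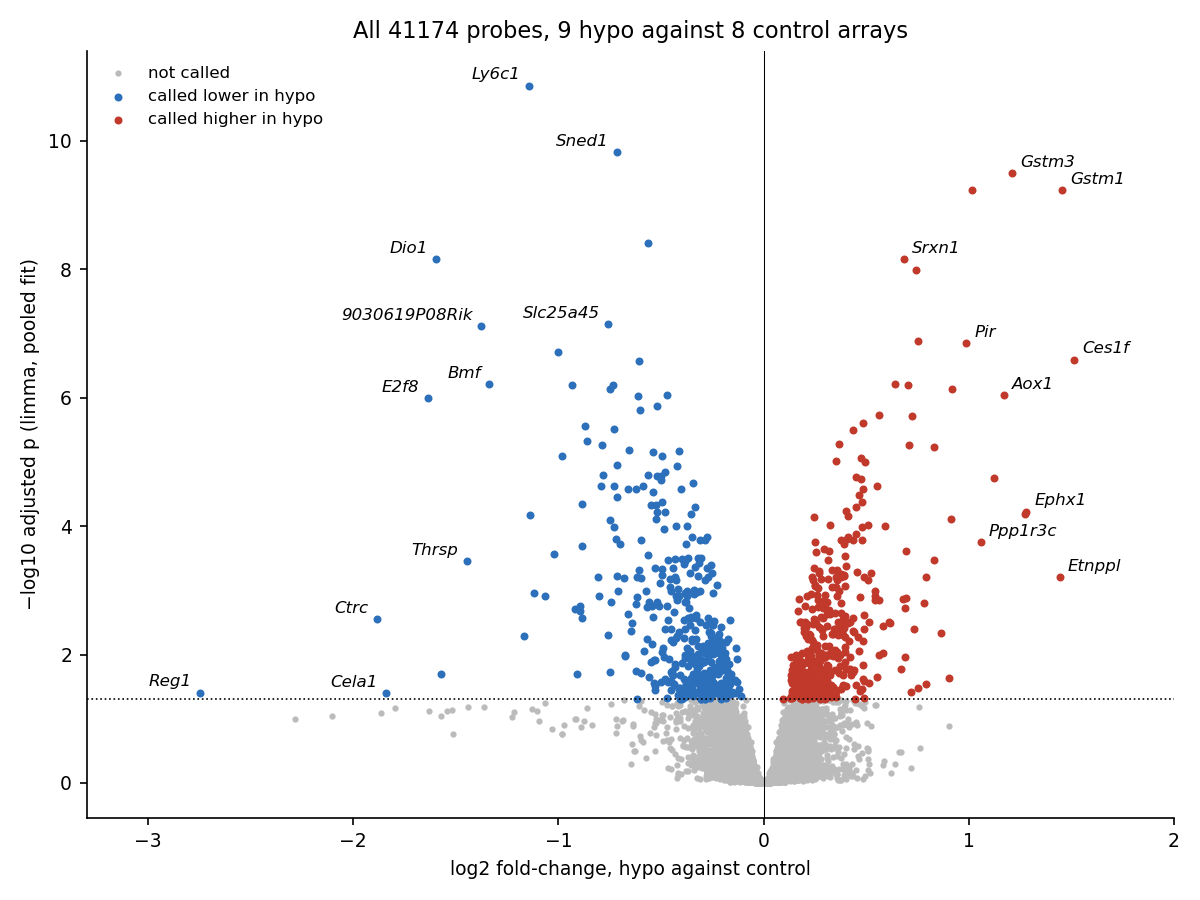
Log2 fold-change of hypo against control pups (x) and −log10 of the adjusted p of the pooled limma fit (y), 1 point for each of 41174 probes; the dotted line marks the threshold of 0.05. Of the called probes, 419 lie on the left and 443 on the right, and the points furthest left, Reg1 at -2.75 among them, are pancreatic acinar genes.

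Called thyroid hormone target genes all fell. Of 19 genes in this list that were on the array, 7 were called lower and 0 higher (36.8% called, where 2.28% of all genes were), and 4 were called with litter means. The median log2 fold-change of the list was -0.31, against -0.001 over all genes. Dio1, the deiodinase that turns T4 into T3 in liver, led the list. Its log2 ratio was 5.60 at the lowest, 6.04 at the median and 6.42 at the highest in control pups, and 3.47, 4.48 and 5.07 in hypo pups. Every hypo pup lay below every control pup. The log2 fold-change of Dio1 was -1.60 (SE 0.14, adjusted p = 6.99e-09), and it was -1.46 in males and -1.77 in females. Between arrays of the same slide it ranged from -1.99 to -1.03. In whole liver, fewer cells of a type and less RNA per cell cannot be told apart. This list and those below were fixed with earlier results of these data known, so their shares are no independent evidence. Of all 33236 genes, 5899 were not well above background in Cy5 on any hypo or control array, by their brightest probe. Each list held at most 1 such gene, so the share over all genes is not a matched base for the lists.

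The 250 bases before the start of Dio1 are shown because this gene is the standard reporter of hormone action in liver. They lie at chr4:107307169-107307418 on the minus strand (build GRCm38.p6, from RefSeq), and they hold no match to AGGTCA, the half-site of a thyroid hormone response element, on either strand.
Dio1: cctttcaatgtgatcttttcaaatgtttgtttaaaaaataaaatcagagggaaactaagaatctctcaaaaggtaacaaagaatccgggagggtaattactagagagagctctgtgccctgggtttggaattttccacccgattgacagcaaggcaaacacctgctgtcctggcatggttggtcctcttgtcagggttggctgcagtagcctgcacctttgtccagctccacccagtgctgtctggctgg
No match says only that these letters are not in this window. Over all 32851 promoter windows of this length, 14% held AGGTCA on either strand.

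Thrsp, a regulator of lipogenesis, fell by 1.45 on the log2 scale (SE 0.24, adjusted p = 0.000355). Its log2 ratio was 1.39, 2.38 and 2.71 (lowest, median, highest) in control pups and 0.03, 0.50 and 1.78 in hypo pups. The groups overlapped, through the hypo pup 893 at the top of its group and the control pup 882 at the bottom of its own. Thrsp was well above background in Cy5 on 7 of 9 hypo arrays and on all 8 control arrays. Gpd2, the mitochondrial glycerol-3-phosphate dehydrogenase, went from 0.41, 0.55 and 1.01 in control pups to -0.86, -0.12 and 0.03 in hypo pups, with no overlap. Its log2 fold-change was -0.79 (SE 0.10, adjusted p = 5.38e-06), and a further probe gave -0.72. Bcl3, a partner of NF-kappaB, changed by -0.75 (SE 0.11, adjusted p = 7.95e-05), from a median of 0.71 to a median of -0.07.

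Me1, the malic enzyme that supplies NADPH for fatty acid synthesis, fell by 0.43 (adjusted p = 0.00032). Slc16a10, a transporter of aromatic amino acids and thyroid hormones, had a log2 fold-change of -0.49 by the called probe and of 0.04 and -0.08 by its other probes. Cyp7a1, the rate-limiting enzyme of bile acid synthesis, changed by -0.53 with an adjusted p of 0.0361, and 5 of 14 alternative settings called it. Klf9 and Fasn, not called, had log2 fold-changes of -0.42 and -0.31. Among 22 receptors, cofactors, transporters and binding proteins, Slc16a10 was called lower and Serpina7 higher (9.09% called, against 2.28% of all genes). The receptors Thra and Thrb, neither of them called, had log2 fold-changes of 0.07 and -0.01. Serpina7, the thyroxine-binding globulin of plasma, had log2 ratios of 3.47, 3.73 and 4.22 in control and 3.27, 4.58 and 5.64 in hypo pups. Its log2 fold-change was 0.79 (SE 0.20, adjusted p = 0.0291), hypo pups spread over both sides of the controls, and with litter means the adjusted p was 0.508.

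**Figure D2:**
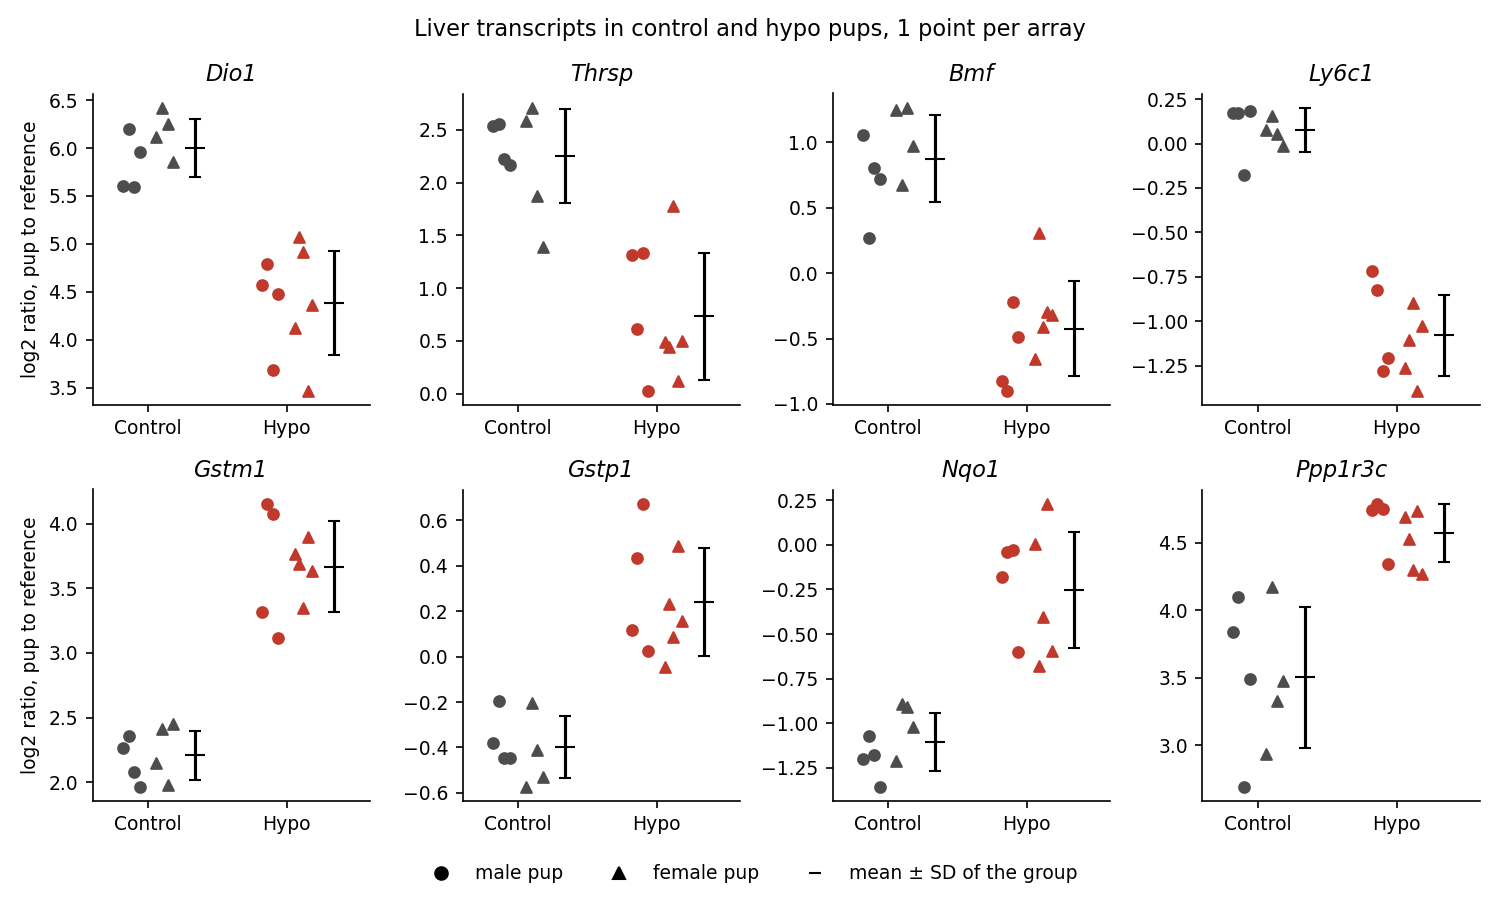
Log2 ratio of pup to reference (y) for 8 genes in control and hypo pups, 1 point per array, with males as circles, females as triangles and the mean ± SD of the group beside them. The upper row holds genes that fell and the lower row genes that rose, each by its called probe with the largest change. Further probes of Bmf and Ly6c1 were not called. Groups do not overlap for Dio1, Ly6c1, Gstm1, Gstp1, Nqo1 and Ppp1r3c, while 1 hypo pup reaches the control range for Thrsp and for Bmf.

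Lipid synthesis genes fell in part, and fatty acid oxidation genes were not called. In the list of fatty acid and triglyceride synthesis, 5 of 21 genes were called lower and 0 higher (23.8% called, against 2.28% of all genes). They were Thrsp, Me1, Dgat2, Elovl5 and Fads2, and 2 of the list were called with litter means. Dgat2, which makes triglycerides, changed by -0.36, the elongase Elovl5 by -0.34 and the desaturase Fads2 by -0.32. The groups did not overlap for Elovl5, at 2.75 to 2.97 in control and 2.27 to 2.73 in hypo pups, by the called probe. A further probe of Elovl5 gave -0.15 (adjusted p = 0.505), with overlap of the groups. Of 20 genes of fatty acid oxidation, 0 were called by limma. The largest changes there were -0.64 for Angptl4 (adjusted p = 0.247), 0.21 for Acot1 and 0.20 for Pdk4, and the median of the list was 0.05.

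In the list of cholesterol and bile acid genes, 5 of 22 genes were called lower and 1 higher (27.3% called, against 2.28% of all genes). Cyp27a1, of the acidic bile acid pathway, fell by 0.48, and Hmgcs1 and Dhcr7, enzymes of cholesterol synthesis, by 0.48 and 0.33. Further probes gave -0.20 for Hmgcs1 and -0.03 for Dhcr7, neither called. Fdft1, also of cholesterol synthesis, rose by 0.33 with its called probe and gave -0.06 with a further probe. With litter means 0 genes of this list were called by limma, and without the 3 control pups described at the end of the cell type section 1 was called.

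The largest falls of all were those of pancreatic acinar genes, which are given last with the cell type markers. E2f8, an atypical E2F that represses cell cycle genes, had probes that differed. The probe that was called had log2 ratios of 1.56, 2.17 and 3.04 in control and 0.05, 0.42 and 1.18 in hypo pups, without overlap, and a log2 fold-change of -1.64 (SE 0.19, adjusted p = 1.03e-06). The other probe gave -0.23. Bmf, which codes for a pro-apoptotic BH3-only protein, went from 0.27, 0.88 and 1.26 in control to -0.90, -0.41 and 0.31 in hypo pups. Its log2 fold-change was -1.34 (SE 0.15, adjusted p = 6.21e-07) by that probe and -0.13 and -0.12 by the others. Ly6c1, a GPI-anchored surface antigen, had the smallest adjusted p of all probes. It went from -0.18, 0.12 and 0.18 to -1.39, -1.11 and -0.72, so that a wide gap separated the groups. The log2 fold-change of Ly6c1 was -1.15 (SE 0.08, adjusted p = 1.38e-11), and a further probe gave 0.05. The called probes of E2f8, Ly6c1, H2-Q1, Etnppl and Slc16a10 were not those that the files list under a RefSeq transcript of the gene. The probes so listed gave -0.23 for E2f8, 0.05 for Ly6c1, -0.12 for H2-Q1, 0.75 for Etnppl, and 0.04 and -0.08 for Slc16a10.

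The window of Bmf is shown as that of a gene with a large fall by 1 of its probes that holds the half-site AGGTCA, in capitals, on the gene's own strand in the 250 bases before the start. It lies at chr2:118549687-118549936 on the minus strand of GRCm38.p6 (RefSeq), and 1 of the 3 start sites of Bmf in this table holds the match.
Bmf: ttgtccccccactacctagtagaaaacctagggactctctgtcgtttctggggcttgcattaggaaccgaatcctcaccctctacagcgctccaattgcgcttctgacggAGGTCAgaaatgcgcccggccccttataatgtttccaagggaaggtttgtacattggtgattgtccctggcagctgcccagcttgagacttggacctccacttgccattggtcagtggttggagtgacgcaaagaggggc
The half-site spans bases 140 to 135 before the start. Of the 333 windows of genes called lower, 15% held AGGTCA, against 12.2% of the 16507 windows of genes on the array and 11.2% of the 321 windows of genes called higher. Further named genes with a match were Ly6c1, Cpsf4l, Cyp3a44, Trim24, Stat5a, Stat5b, Slc25a45, Hmgcs1, Dhcr7, Pfkfb1, Cela1 and Amy2a5, lower by their called probe. Spsb4 and Srxn1, higher by theirs, and Igf2, not called, also had a match. Further probes gave 0.05 for Ly6c1, 0.03 for Cyp3a44 and -0.03 for Dhcr7. Those of Hmgcs1 gave -0.20, of Stat5b -0.26 and -0.06, and of Amy2a5 -0.67 and -0.03. The limits of the calls of Cela1 and Pfkfb1 are given with their lists.

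The transcript 9030619P08Rik, listed as a pseudogene, fell by 1.38 (SE 0.14, adjusted p = 7.64e-08), from 3.06, 3.33 and 4.02 to 1.48, 1.99 and 2.57. Prodh, the proline dehydrogenase of mitochondria, fell by 1.17 (adjusted p = 0.00507), and its adjusted p was 0.139 with litter means. H2-Q1, of the class I histocompatibility family, fell by 1.14 and Cyp3a44, a cytochrome P450 of the steroid-metabolizing 3A family, by 1.12. A further probe for each gave -0.12 and 0.03, and near-identical relatives of both genes could share signal. Cpsf4l fell by 1.06 and 2210407C18Rik by 1.02. Of these 6 genes, 9030619P08Rik, H2-Q1 and 2210407C18Rik were also called with litter means.

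Called glutathione transferases all rose. Of 20 family members on the array, 10 were called higher and 0 lower (50% called, where 1.22% of all genes were called higher), 7 were called with litter means, and 19 had a log2 fold-change above 0. The median of the family was 0.29. This list and that of the NRF2 targets below were also fixed with earlier results known. Gstm1, of the mu class, had log2 ratios of 1.97, 2.21 and 2.45 in control and 3.11, 3.69 and 4.16 in hypo pups. All hypo pups lay above all control pups. The log2 fold-change of Gstm1 was 1.46 (SE 0.12, adjusted p = 5.89e-10), with 1.50 in males and 1.42 in females, and a further probe gave 1.02. Gstm3 went from 1.92, 2.13 and 2.27 to 2.83, 3.35 and 3.73, again without overlap, with a log2 fold-change of 1.21 (SE 0.09, adjusted p = 3.22e-10).

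Gsta2, of the alpha class, went from -0.57, -0.46 and -0.17 to -0.17, 0.33 and 0.92, a change of 0.78 (SE 0.15, adjusted p = 0.00156) that had an adjusted p of 0.177 with litter means. Gstp1, of the pi class, rose by 0.64 (SE 0.07, adjusted p = 6.23e-07) and by 0.56 with a further probe. Gstt2, of the theta class, rose by 0.55 (adjusted p = 2.39e-05). The other called members, Gstm4, Gstm6, Gstm2, Mgst1 and Gsta4, rose by 0.48, 0.46, 0.45, 0.37 and 0.35. Gstt1, with -0.17, was the member below 0. Mu class genes are close in sequence, and how far their probes share signal was not tested.

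Most called NRF2 targets outside that family rose. Of 19 measured, 9 were called higher and 1 lower (52.6% called, against 2.28% of all genes), and 5 were called with litter means. Ephx1, the microsomal epoxide hydrolase, went from -1.88, -0.46 and 0.25 in control to 0.54, 0.77 and 1.17 in hypo pups, a change of 1.28 (SE 0.19, adjusted p = 5.94e-05). Its control group was wide because the control pup 522 lay far below the others. Nqo1, the quinone reductase most used as an NRF2 reporter, went from -1.35, -1.12 and -0.89 to -0.68, -0.18 and 0.23. Its log2 fold-change was 0.83 (SE 0.11, adjusted p = 5.81e-06) without overlap of the groups. Cbr1, a carbonyl reductase, rose by 0.71 (adjusted p = 5.38e-06). Srxn1, the sulfiredoxin that repairs peroxiredoxins, had a narrow control range of -0.83 to -0.58 and a hypo range of -0.37 to 0.29. It rose by 0.68 (SE 0.06, adjusted p = 6.99e-09), and its further probes gave 0.50 and 0.41.

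Gclc, the catalytic subunit of glutathione synthesis, rose by 0.46, Txnrd1 and Ftl1 by 0.39 each, Gsr by 0.29 and Prdx1 by 0.26. Osgin1, an oxidative stress growth inhibitor, went the other way with a log2 fold-change of -0.55 (adjusted p = 0.0131), and further probes gave -0.53 and -0.46. Hmox1, the classical stress-inducible heme oxygenase, and Gclm were not called, with 0.04 and 0.11. Pir, an iron-binding nuclear protein that was in none of the lists, rose by 0.99 (SE 0.10, adjusted p = 1.43e-07), from -0.04, 0.27 and 0.50 in control to 0.74, 1.32 and 1.51 in hypo pups.

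Windows of 3 risen genes are shown because they hold TGANTCAGC, a form of the antioxidant response element to which NRF2 binds, in the 250 bases before the start. The capitals mark the match, which is on the gene's own strand in Srxn1 and Gstp1 and on the opposite strand in Pir. The windows lie at chr2:152105274-152105523 on the plus strand for Srxn1, chr19:4037913-4038162 on the minus strand for Gstp1 and chrX:164269181-164269430 on the plus strand for Pir (GRCm38.p6, RefSeq).
Srxn1: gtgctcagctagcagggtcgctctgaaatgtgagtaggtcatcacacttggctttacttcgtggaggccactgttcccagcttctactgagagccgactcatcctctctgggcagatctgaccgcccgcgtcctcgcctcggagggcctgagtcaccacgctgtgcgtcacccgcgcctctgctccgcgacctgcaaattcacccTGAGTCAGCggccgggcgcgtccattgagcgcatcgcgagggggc
Gstp1: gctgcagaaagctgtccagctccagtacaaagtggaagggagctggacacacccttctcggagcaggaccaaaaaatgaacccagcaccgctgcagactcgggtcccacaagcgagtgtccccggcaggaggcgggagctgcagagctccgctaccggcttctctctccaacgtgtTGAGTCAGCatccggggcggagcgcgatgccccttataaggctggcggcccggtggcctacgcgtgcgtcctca
Pir: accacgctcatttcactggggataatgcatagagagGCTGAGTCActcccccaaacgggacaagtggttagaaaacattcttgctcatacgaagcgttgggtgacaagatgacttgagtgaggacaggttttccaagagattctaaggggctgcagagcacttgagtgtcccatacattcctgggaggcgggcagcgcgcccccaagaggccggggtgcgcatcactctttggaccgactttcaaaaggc
The match ends 37 bases before the start in Srxn1, 66 bases in Gstp1 and 206 bases in Pir. The window of Srxn1 also holds AGGTCA, apart from this match. Of all 32851 windows, 1.02% held TGANTCAGC on either strand, as did 7 of the 321 windows of genes called higher (2.18%) and 5 of the 333 windows of genes called lower (1.5%). Of the named genes with a called probe that was lower, Osgin1 and Dhcr7 also had a match, and a further probe of Dhcr7 gave -0.03. No match was found for Gstm1, Gstm3, Nqo1 or Ephx1, which says nothing of elements further away. A promoter entry was found for 67 of the 86 named genes, and a gene without one could give no match.

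**Figure D3:**
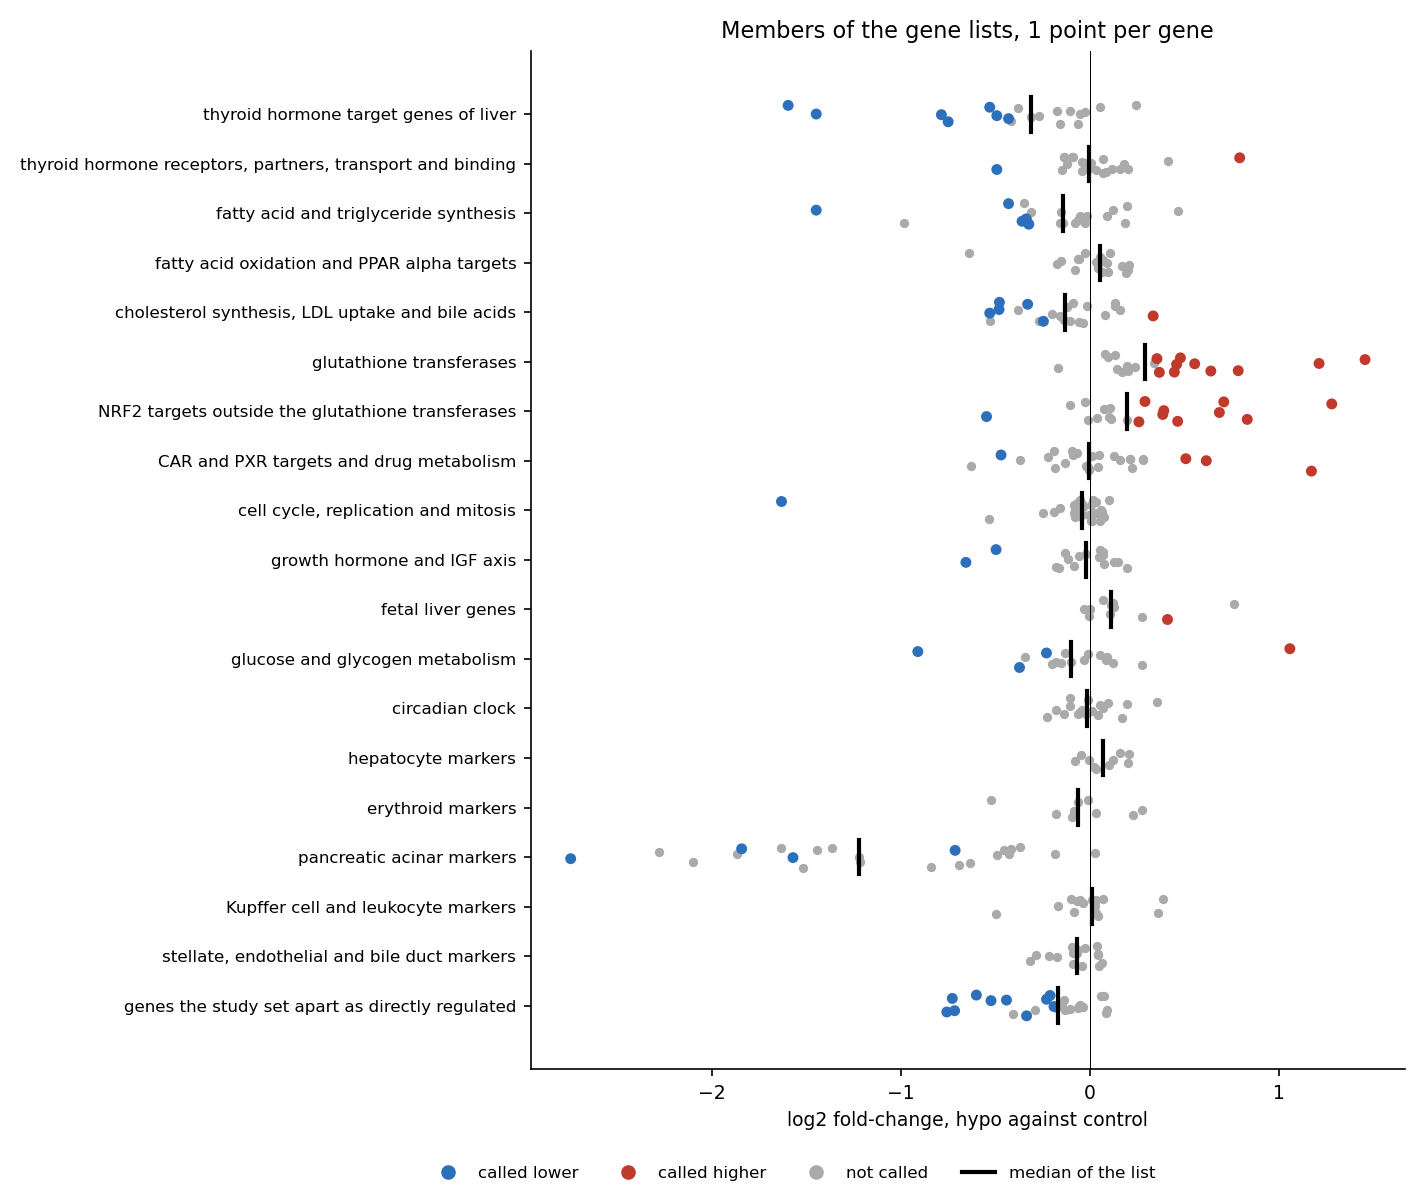
Log2 fold-change of hypo against control (x) for the measured members of 19 gene lists (y), 1 point per gene, at its called probe with the largest change or else at its brightest probe; the black bar is the median of the list over brightest probes. Called genes of the glutathione transferase list all lie right of 0 and those of the thyroid hormone target list all lie left of it, and the pancreatic acinar list has its median at -1.22.

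Drug metabolism genes moved singly. In the list of CAR and PXR targets, 3 of 28 genes were called higher and 1 lower (14.3% called, against 2.28% of all genes), and 1 was called with litter means. Aox1, an aldehyde oxidase, went from 0.11, 0.22 and 0.45 to 0.63, 1.50 and 1.93, with a log2 fold-change of 1.17 (SE 0.14, adjusted p = 9.25e-07). Abcc3, an export pump of conjugates, rose by 0.62 and Cyp2c55 by 0.51, and a further probe of Abcc3, not called, gave 0.14. Cyp2a5 changed by -0.47 with an adjusted p of 0.0481, was called under 6 of 14 alternative settings, between -1.10 and -0.0447, and lost its call when any of 14 single pups was left out. Cyp2b10 and Cyp3a11, the genes most used to report CAR and PXR, were not called, with 0.28 and -0.02. Outside the list, the carboxylesterase Ces1f had the largest rise of all named genes. Its log2 ratio went from 1.30, 1.72 and 2.01 in control to 2.34, 3.38 and 3.72 in hypo pups, a change of 1.51 (SE 0.16, adjusted p = 2.56e-07), with 1.19 in males and 1.76 in females.

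Glycogen and glucose genes changed in opposite directions. Of 17 genes, 3 were called lower and 1 higher (23.5% called, against 2.28% of all genes). Ppp1r3c, a subunit that targets protein phosphatase 1 to glycogen, went from 2.70, 3.49 and 4.17 to 4.27, 4.69 and 4.79. Hypo pups lay close together above a spread control group, and the log2 fold-change was 1.06 (SE 0.17, adjusted p = 0.000177) and 0.70 by a further probe. Gbe1, the glycogen branching enzyme, fell by 0.37 and was also called with litter means. Pfkfb1 fell by 0.23, was called under 3 of 14 alternative settings, and lost its call when any of 10 single pups was left out.

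Further large rises came from single genes outside the lists. Etnppl, which breaks down phosphoethanolamine, went from 0.82, 2.03 and 2.68 to 2.42, 3.49 and 4.18 and rose by 1.44 (SE 0.25, adjusted p = 0.00063). A brighter probe of Etnppl gave 0.75 (adjusted p = 0.0331). Acot3, a peroxisomal acyl-CoA thioesterase, rose by 0.92 (SE 0.10, adjusted p = 7.46e-07). Spsb4, a substrate adaptor of ubiquitin ligases, rose by 0.90 (adjusted p = 0.0236), Fst, the activin antagonist follistatin, by 0.87 (adjusted p = 0.0046) and the transcript Hnf4aos by 0.79 (adjusted p = 0.000617). Of these 5 genes, Etnppl and Acot3 were called with litter means as well. The brighter probe of Etnppl was not (adjusted p = 0.408 in limma with litter means).

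Signal transducers of growth hormone fell, and the hormone axis around them was otherwise not called. Stat5a ranged from 0.63 to 1.44 in control and from -0.01 to 0.68 in hypo pups, with a small overlap, a change of -0.66 (SE 0.08, adjusted p = 6.59e-06). Stat5b fell by 0.50 (SE 0.07, adjusted p = 4.2e-05), and its further probes gave -0.26 and -0.06. They were the only called genes of 17 in the list (11.8%, against 2.28% of all genes), where Igf1 had -0.11 and Ghr -0.02. Of 12 fetal liver genes, 1 was called (8.33%, against 2.28% of all genes). That gene, Igf2bp3, an RNA-binding protein of fetal tissues, rose by 0.41 (adjusted p = 0.00016). Afp, the albumin of the fetus, had log2 ratios of 4.42, 5.37 and 5.61 in control and 5.51, 5.83 and 7.45 in hypo pups, a change of 0.76 that was not called (adjusted p = 0.0662).

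Of 35 genes of cell cycle, replication and mitosis, E2f8 was called, by 1 of its probes, and no other. That was 2.86% of the list, against 2.28% of all genes. Cdkn1a, a brake of the cell cycle, had -0.53 (adjusted p = 0.134), Aurkb -0.25 and Rrm2 -0.19, and the median of the list was -0.04. Of 18 clock genes 0 were called by limma, with 0.35 for Per2 (adjusted p = 0.214) and -0.23 for Bhlhe40.

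A list of 26 measured genes held most, but not all, of those that the study had set apart as directly regulated by the hormone. It was chosen from these same arrays and is no independent evidence of direction. Of the list, 10 genes were called lower in hypo pups and 0 higher (38.5% called, against 2.28% of all genes). With litter means 5 were called. Sned1, an extracellular matrix protein, went from -0.38, -0.08 and -0.01 in control to -1.03, -0.79 and -0.73 in hypo pups. Its log2 fold-change was -0.72 (SE 0.05, adjusted p = 1.48e-10), with -0.40 and -0.28 by further probes. Slc25a45, a mitochondrial carrier, fell by 0.76 (SE 0.08, adjusted p = 7.16e-08), DXBay18 by 0.73, Trim24, a coregulator of nuclear receptors, by 0.60 and Wipf3 by 0.52. Auts2, of the same list, had 0.08 and was not called.

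No marker of the other liver cell types, nor of hepatocytes, passed the test. Of 10 hepatocyte markers 0 were called by limma, with a median of 0.07, and Alb, albumin, had 0.21 (adjusted p = 0.827). By limma 0 genes were called among 9 erythroid markers, 15 markers of Kupffer cells and leukocytes and 17 of stellate cells, endothelium and bile ducts. Their medians were -0.06, 0.01 and -0.07. The widest single changes in these lists were Slc4a1 with -0.53 (adjusted p = 0.182), Cd163 with -0.50 (adjusted p = 0.0879) and Lrat with -0.32 (adjusted p = 0.28).

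Pancreatic acinar transcripts stood apart. Of 23 such genes on the array, 4 were called lower (17.4%, where 1.06% of all genes were), namely Reg1, Cela1, Cela2a and Amy2a5. In the list 22 had a log2 fold-change below 0, with a median of -1.22, of -1.80 in males and -0.61 in females. Single control arrays stood apart in these transcripts. The summed Cy5 intensity of the list was 192500 in control pup 522, 177400 in control pup 832 and 38950 in control pup 831. It lay between 12520 and 14320 in the other 5 control pups and between 9170 and 13210 in all 9 hypo pups. Reg1, a secreted protein of acinar cells, had log2 ratios of 6.93, 7.50 and 6.04 in those 3 pups and between 0.10 and 1.73 in the other control pups, against -0.11 to 0.71 in hypo pups. Its log2 fold-change of -2.75 (SE 0.74, adjusted p = 0.0393) became -0.45 without them (adjusted p = 0.85). For the elastases Cela1 and Cela2a, the changes of -1.84 and -1.57 became -0.22 and -0.31, and the median of the list became -0.05.

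Ctrc, a chymotrypsin that was outside the list, kept a difference. In the 5 other control pups its log2 ratio was 1.07 to 1.45, above the range of 0.38 to 0.92 in hypo pups. Its log2 fold-change was -1.88 (SE 0.38, adjusted p = 0.00283) with all pups, -0.67 (adjusted p = 0.0457) without the 3 control pups, and its adjusted p was 0.0859 with litter means. Amy2a5, a pancreatic amylase, had a probe that was not well above background in Cy5 on any hypo array and was on 6 of 8 control arrays. By that probe it was at least 1.39-fold higher in control pups (adjusted p = 0.000606), a bound that includes the 3 control pups and takes, on each hypo array, the higher of its own signal and the lowest signal well above background. Without the 3 pups its log2 fold-change was -0.385 (adjusted p = 0.00412). A brighter probe of Amy2a5, well above background on all 17 arrays, gave -0.67 (adjusted p = 0.0102) with all pups.

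Without these 3 control pups, 385 genes were called in hypo pups (198 lower and 187 higher), and 348 of them were among the 758. Pups 831 and 832 shared an inferred litter. The fall of Dio1 was then 1.56 on the log2 scale (adjusted p = 2.61e-06) and the rise of Gstm1 1.45 (adjusted p = 1.32e-07). Thyroid hormone targets had 6 called genes in place of 7, glutathione transferases 9 in place of 10 and other NRF2 targets 9 in place of 10. Prodh, Fst, Spsb4, Serpina7, Dgat2, Fads2 and Abcc3 were among the named genes no longer called. The part of the acinar transcripts in the other results was not tested further.

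**Figure D4:**
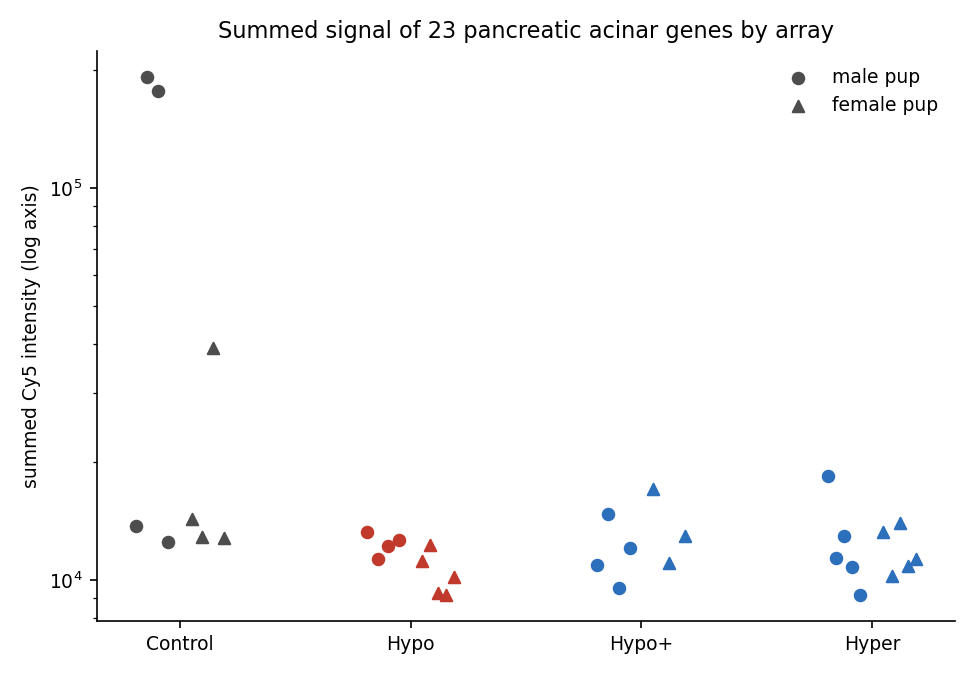
Summed quantile-normalized Cy5 intensity of 23 pancreatic acinar genes (y, log axis) on each of 34 arrays by group, with males as circles and females as triangles. Control pups 522, 832 and 831 stand at 192500, 177400 and 38950, and the highest of the other arrays of the series is at 18420.

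Setting hypo+ pups beside hypo pups shows which differences were also present after hormone was injected. The hypo+ pups had been kept for a serum T4 near control or slightly above it, so they are not an unselected group. The same control pups serve both contrasts, so each gene's own values are given side by side. In hypo+ pups 1581 genes were called against hypo (4.76%) and 647 against control (1.95%). Dio1 had a log2 fold-change against control of -1.60 in hypo and 0.13 in hypo+ pups, and hypo+ exceeded hypo by 1.73 (adjusted p = 2.63e-09). Ly6c1 had -1.15 and 0.12, Thrsp -1.45 and -0.12, and 9030619P08Rik -1.38 and -0.18. Bmf, by its called probe, had -1.34 in hypo and 0.65 in hypo+ pups, on the other side of control. A further probe of Ly6c1 had 0.05 in hypo and -0.02 in hypo+ pups. The other probes of Bmf had -0.13 and 0.14, and -0.12 and 0.05. Among genes that rose, Ppp1r3c had 1.06 and -0.73, Etnppl 1.44 and -0.09 and Acot3 0.92 and -0.45. Further probes had 0.70 and -0.51 for Ppp1r3c, and 0.75 and -0.08 for Etnppl.

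Glutathione transferases and NRF2 targets were compared in the same way. Gstm1 had 1.46 in hypo and 1.38 in hypo+ pups, and the difference of hypo+ from hypo was -0.08 (adjusted p = 0.844). Gstm3 had 1.21 and 1.11, Gstp1 0.64 and 0.59, Cbr1 0.71 and 0.66, Ephx1 1.28 and 1.07, Pir 0.99 and 0.83, and Nqo1 0.83 and 0.56. For these 7 genes the adjusted p of hypo+ against hypo lay between 0.226 and 0.872. A p above the threshold does not show equal levels. Srxn1 had 0.68 and 0.46, a difference of -0.22 (adjusted p = 0.051), and a further probe had 0.50 and 0.24, a difference of -0.26 that was called (adjusted p = 0.0316). Gstm4 had 0.48 and 0.13, and its difference of -0.35 was called (adjusted p = 0.00727). Osgin1, the NRF2 target that was lower in hypo pups, had -0.55 in hypo and 0.60 in hypo+ pups. Cyp3a44 had -1.12 and -0.99, and a further probe had 0.03 and 0.13.

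**Figure D5:**
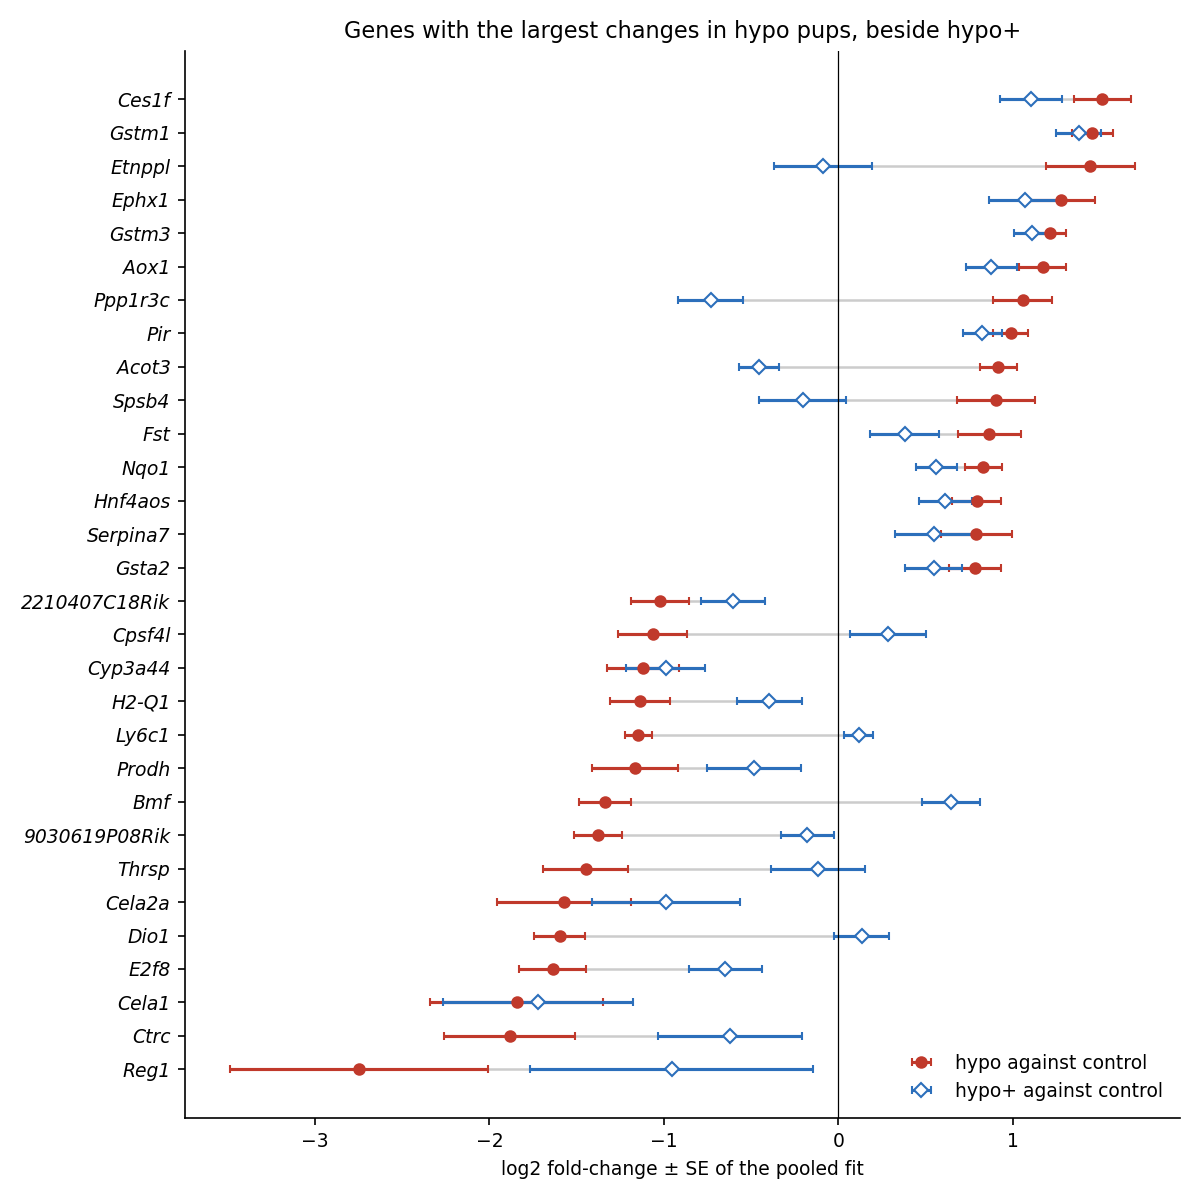
Log2 fold-change against control ± SE (x) in hypo pups (filled circles) and hypo+ pups (open diamonds) for the 15 genes with the largest rises and the 15 with the largest falls in hypo pups (y). Gstm1, Gstm3, Ephx1 and Pir have both symbols close together, while Dio1, Ly6c1, Etnppl and Thrsp have the hypo+ symbol near 0 and Bmf and Ppp1r3c have it on the other side of 0. Each gene is shown at its called probe with the largest change. Further probes of E2f8, Bmf, Ly6c1, H2-Q1 and Cyp3a44 were not called in hypo pups.

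No difference between males and females passed the test. The interaction of sex and goitrogens called 0 genes in limma, with 901 probes at an unadjusted p below 0.05 where 2058.7 would be expected by the uniform rate, and it called 0 genes with no slide block (428 such probes) or with the slide as a fixed block (1344). Fitted alone, males gave 36 called genes (0.108%) and females 55 (0.165%). Dio1, Gstm1 and E2f8 were called in each sex. Thrsp was called in neither alone, with -1.55 in males (adjusted p = 0.358) and -1.48 in females (adjusted p = 0.0768).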

How the data were processed

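Whole-liver RNA of each pup was hybridised on a 2-colour Agilent array with 4 arrays to a slide. The deposited scanner files hold intensity values from Feature Extraction 10.1.1.1. The log10 ratios of Feature Extraction in the same files (Cy5 over Cy3) and the log2 ratios of the authors' value table were used as alternatives. Arrays of the authors' value table had a median near 0. Per the methods, the authors normalized by loess, analysed each sex separately and removed outlying arrays before their final analysis.

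Here, limma 3.58.1 (R 4.3.3) was used to normalize each array by loess, from median intensities without background subtraction. Control spots and spots marked as outliers were left out (77 to 178 per control or hypo array), and spots of a probe were averaged. The fit used 34 arrays and 4 groups, with sex as covariate and slide as random block (correlation 0.2375, 11 slides), and Benjamini-Hochberg adjustment over 41174 probes. A list median uses the brightest probe of each gene, and a called gene is shown at its called probe with the largest change. Symbols came from RefSeq accessions for 16806 of 33541 systematic names and from the study's tables for 75, and the rest kept their identifiers. Of 371 list genes, 352 were on the array. A promoter entry was found for 67 of 86 named genes. Animals whose numbers share their leading 2 digits were taken as a litter, which no source states.

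Named genes were Dio1, Thrsp, Gstm1 and E2f8, the 15 largest falls and 15 largest rises among called genes with a symbol, up to 5 called members of each list, and, where fewer than 2 were called, up to 3 further members. Genes among the first groups with 1 array apart by Dixon's test, and further probes of named genes, were added. Other list members and Amy2a5's bound were named after their values were seen. The members, lists and rules were chosen with earlier results of these data known. On simulated data with the same probes, the fit recovered 92 of 100 changes of 0.5 and 100 of 100 changes of 1 on the log2 scale, with 8 false calls. The simulated pups had no litter effect and a smaller slide correlation than the 0.2375 of the data. These counts therefore do not give the error rate of the fit to the real pups. Alternatives changed the background correction, normalization, probe filter, block, arrays and probe summary. Results of some genes that this rule names are not reported here. The sources differ by 1 day on when the goitrogens began. Probe sequences were not used here, so signal shared between members of a gene family was not checked. Figures were drawn with matplotlib 3.10.9.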

Additional observations from a re-analysis of the deposited data

Results flagged for a closer look

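In 4 of 60 groups tested, over 30 genes, 1 pup stood apart from its group by Dixon's gap test, where chance gives about 1 group in 20. The hypo pup 576 had the highest log2 ratio of Reg1 in its group, at 0.713. The control pup 522, which also had the highest acinar sum, had the lowest log2 ratio of Ephx1, at -1.88. The control pup 394 had the highest log2 ratio of Fst among controls, at 0.0115. The control pup 523 had the highest log2 ratio of Gsta2 among controls, at -0.168.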

How the results depend on the processing

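No paired analysis was possible because the replicate numbers, by which pups would be paired, are animal numbers and the groups share none. A fixed slide block, which compares arrays within slides, gave 689 genes (322 lower, 367 higher). Against 758 called genes (351 lower, 407 higher) and 862 probes, the count was 457 (226 lower, 231 higher, 528 probes) with no slide block, 357 (180, 177 and 416) with litter as a random block, and 167 (94, 73 and 197, with 31 list genes) with litter means. It was 467 (165 lower, 533 probes) after median centring, and 153 genes were lower after normexp and 635 higher with Cy5 alone. Males alone gave 36 genes (23 lower, 13 higher, 40 probes, 13 list genes) and females alone 55 (34, 21, 64 and 16). Without the 3 control pups high in acinar transcripts, an alternative chosen after seeing the data, it was 385 (198, 187 and 436). Thrsp was not called in 1 sex alone, with -1.55 in males and -1.48 in females. Leaving out each pup in turn gave 546 to 917 genes, 271 to 437 lower, 266 (without control pup 523) to 480 higher, 631 to 1031 probes and 50 to 69 list genes. Over those fits Dio1 ran from -1.66 to -1.50, E2f8 from -1.72 to -1.51, Gstm1 from 1.39 to 1.53 and Thrsp from -1.59 to -1.36. No direction of Dio1, E2f8, Gstm1 or Thrsp reversed under the 16 settings run. Of the 62 called named genes, 26 were called under all 14 settings other than 1 sex alone, and 35 were called with litter means. List medians of CAR and PXR targets, hormone receptors, the growth hormone axis, cell cycle, clock, glucose, fatty acid oxidation, hepatocyte, erythroid and Kupffer genes changed sign under some settings. The number of litters and signal near background limit the precision.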
